A study of Mus musculus with 48 samples.

Results

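Mouse chromosome 9 carried 6161 of the 114043 merged ATAC-seq peaks of a series on small cell lung cancer, or 5.40%. These 6161 peaks were taken by position on build mm9, all of 1 length, and the 15 peaks on unplaced chromosome 9 sequence were left aside. The chromosome was chosen by a raised median log2 fold change in one comparison, liver metastases over lung tumors of the Ad-CGRP-Cre model, and the values of that comparison are therefore given as a description, without a test. The question was whether the raised level ran evenly along the chromosome, as a change in the number of chromosome copies would, or was local. For this, peaks with a mean normalised count of 50 or more were read in steps of 5 Mb, of which chromosome 9 had 1529 and the 18 other autosomes 24717. The last peak left out by that minimum, from 117991621 to 117992121, had a mean count of 49.98 and a CGRP log2 fold change of 0.55 in the authors' deposited table. The first peak kept, from 111135936 to 111136436, had a mean count of 50.1 and a log2 fold change of 0.25 in the authors' deposited table.

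ATAC-seq marks DNA that is open to the Tn5 transposase, and the reads at a site grow both with how often the site is open and with how many copies of its DNA the cells hold. A gain or loss of a chromosome or of a long segment thus moves all of its sites together, whereas a change in regulation moves single enhancers, promoters or clusters of them. Mouse chromosomes have their centromere at one end, so a break leaves a proximal part near the centromere and a distal part toward the other telomere. RefSeq places on mouse chromosome 9, among many others, Ncam1, which encodes a neural cell adhesion molecule used to recognise neuroendocrine tumors, Rassf1, which encodes a tumor suppressor often silenced in human small cell lung cancer, Atm, a kinase of the DNA damage response, Ctnnb1, which encodes beta-catenin, and the TGF-beta pathway genes Tgfbr2 and Smad3. The gene table at hand is on another build than the peaks, so no peak is assigned to a gene.

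All libraries came from tumors of mice with the genotype Trp53-/-;Rb1-/-;p130-/-;R26mG, in which Cre recombinase removes 3 tumor suppressors and switches on a membrane GFP reporter. The first comparison set 7 liver metastases against 11 lung tumors that arose after Ad-CGRP-Cre, an adenovirus that expresses Cre from the promoter of a neuroendocrine peptide. The second set 8 libraries with amplification of Nfib, the gene of a transcription factor on chromosome 4, against 7 libraries without it, all after Ad-CMV-Cre, in which a broadly active promoter drives Cre. Of the 8 amplified CMV libraries, 5 were liver metastases, 1 was a lymph node metastasis and 2 were lung tumors, all 7 others were lung tumors, and the fitted table gives no value for lung tumors alone, so the part of tissue in the CMV results was not tested. The description of 1 of the 7 does not list the comparison table, so 6 may have entered the fit. A further 15 CMV libraries marked as low in enrichment entered no comparison. The 7 CGRP liver metastases carry 3 codes in their titles and the 11 lung tumors 5 codes, and the 3 codes of the metastases are among these 5. Likewise, the 8 amplified CMV libraries carry only 2 codes and the 7 others 3, and the 2 codes are among these 3. The labels do not say whether libraries share an animal, and so the p-values reflect variation among libraries that may be technical. All 7 liver metastases and 7 lung tumors were prepared in batch 2 and the other 4 lung tumors in batch 3, and 1 of the 11 lung tumors was labelled Nfib-amplified. The files give fitted values and none per library, so depth per library is unknown, and neither a value within a batch nor a value without a library can be had. Copy number was not measured, and the part of copy number or of the batch in the results was not tested. Tissue labels were not checked against marker genes, since no peak is assigned to a gene.

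In the CGRP model, chromosome 9 had the highest median of the 19 autosomes. The median of its 1529 stronger peaks, those at or over the minimum of 50, was 0.14 on the log2 scale (quartiles -0.06 and 0.30), liver metastases over lung tumors, against -0.04 (quartiles -0.26 and 0.16) for the other autosomes. The gap of 0.18 on the log2 scale equals a 1.13-fold difference. On chromosome 9, 1079 of the 1529 peaks (70.6%) lay above 0, against 45.4% of the peaks of the other autosomes. Chromosome 11 followed with a median of 0.09, and the lowest of the other autosomes stood at -0.23. For scale, if every cell of all metastases held 3 copies of a segment and every lung tumor cell 2, the log2 fold change would be 0.58. In bulk tumors, a larger change in some cells or libraries and a smaller change in all of them cannot be told apart.

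**Figure D1:**
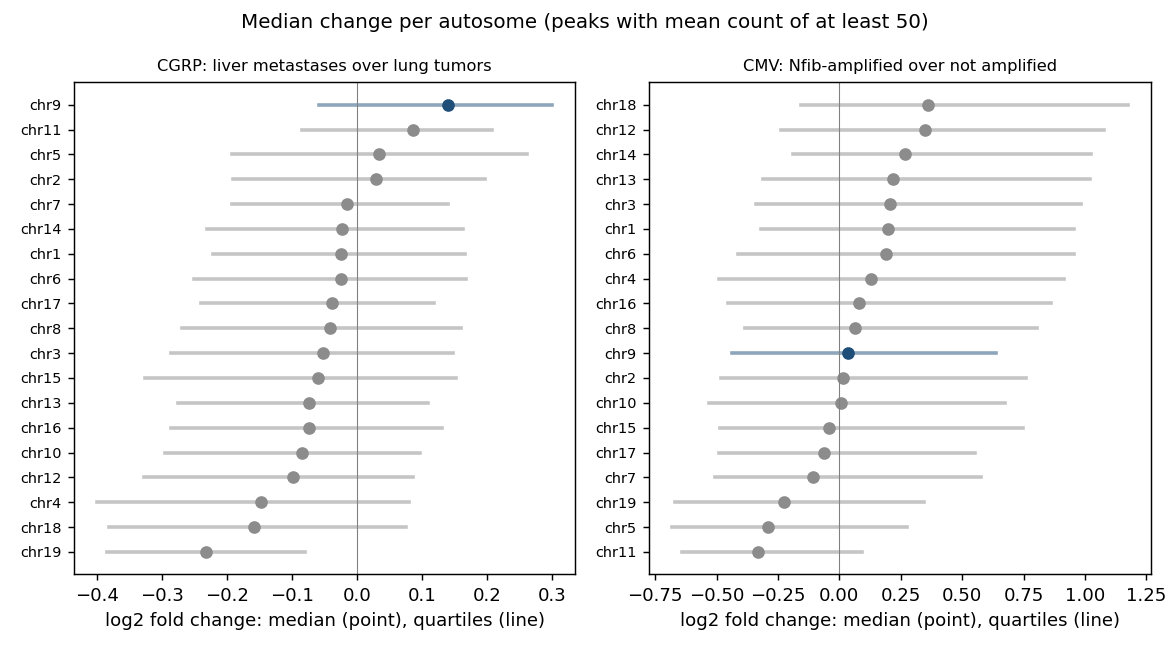
Median log2 fold change (points) and quartiles (lines) per autosome over the peaks at or above the minimum mean count of 50, for CGRP liver metastases over lung tumors (left) and CMV Nfib-amplified over not amplified libraries (right), each sorted from high to low. Chromosome 9, in blue, is at the top on the left with 0.14 and in the middle on the right with 0.04.

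The raised level was broad, yet it did not cover the whole chromosome. Of the 25 steps of 5 Mb, 21 held at least 10 stronger peaks. The first step had only 6, with a median of -0.23, the step that starts at 15 Mb had 7, with a median of -0.40, and no merged peak lay between 5 and 15 Mb. Of these, 20 had a median above that of the other autosomes, or 95.2%, a description of steps that share their libraries. No other autosome exceeded 75% by the same measure. The medians of the 21 steps ran from -0.14 to 0.31 with an SD of 0.11, which was number 5 of the 19 autosomes counted from the most even.

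The steps were read as a proximal and a distal part. Up to 45 Mb, the 5 steps had medians of -0.02, 0.01, -0.02, -0.14 and 0.07 in order from 20 Mb, on both sides of 0. The last pair of these steps stood 0.11 below and 0.11 above the other autosomes. From 45 Mb to the end, all 16 steps had positive medians, from 0.02 to 0.31. The split is not clean, since the step from 40 Mb stood further above the other autosomes (0.11) than the distal steps from 85 and 90 Mb (0.10 and 0.06). The boundary at 45 Mb was chosen after the values were seen.

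**Figure D2:**
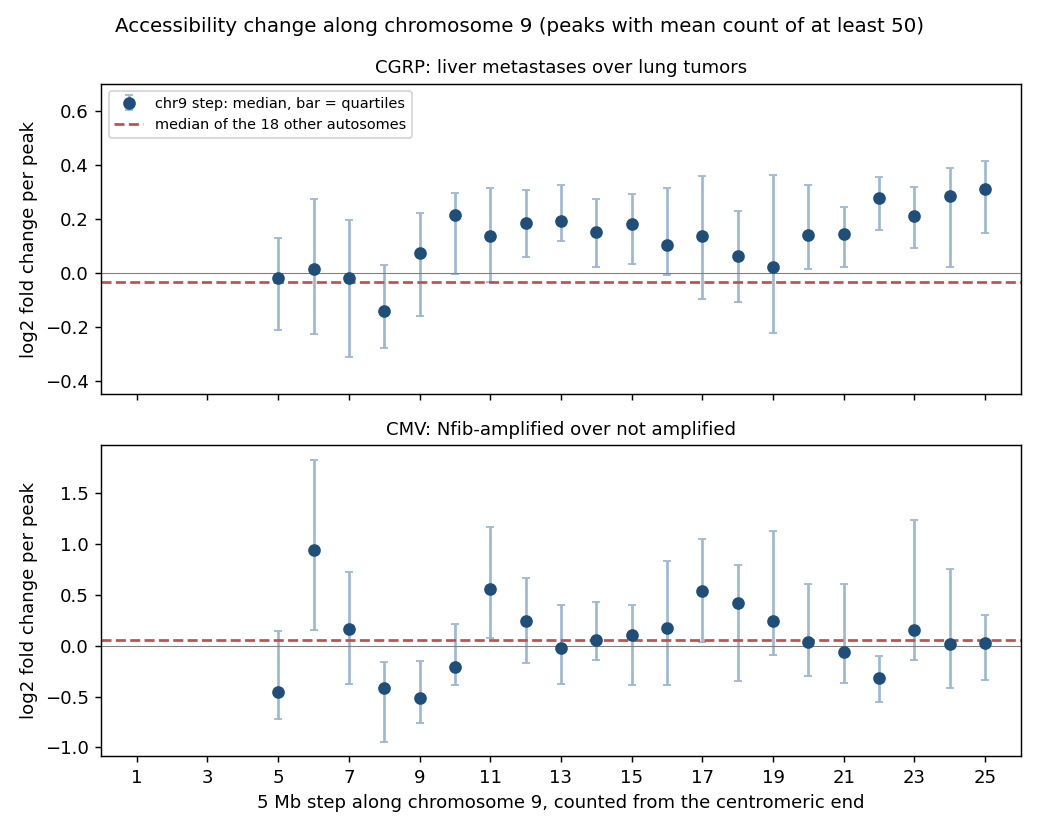
Log2 fold change along chromosome 9 in steps of 5 Mb counted from the centromeric end, with the median (point) and the quartiles (bar) of the stronger peaks, of mean count 50 or more, for the CGRP comparison (top) and the CMV comparison (bottom). The dashed line is the median of the 18 other autosomes, and in the top panel all steps from number 10 on lie above it.

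Over the 1117 stronger peaks of the distal part the median change was 0.19 (quartiles 0.04 and 0.33), and 878 of them (78.6%) lay above 0. The proximal part held 412 such peaks with a median of -0.01 (quartiles -0.25 and 0.17), of which 201 (48.8%) lay above 0. The distal median was thus 0.22 above that of the other autosomes on the log2 scale, a 1.17-fold difference, and the proximal median was 0.02 above it. The distal and proximal peaks had like mean counts, with medians of 89.7 and 88.0, and the median SE of a single peak was 0.22 in the distal and 0.24 in the proximal part.

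Read in windows of 1 Mb from 35 to 50 Mb, the medians changed sign at 42 Mb, a range and position picked after the values were seen. Windows of 1 Mb also varied elsewhere, from -0.27 (25 to 26 Mb) to 0.22 (27 to 28 Mb) within a single proximal step. The position is thus a description and not a located boundary. From 42 to 49 Mb, 63 of 82 stronger peaks (76.8%) lay above 0, with a median of 0.18. From 35 to 42 Mb, 27 of 83 peaks (32.5%) lay above 0, with a median of -0.14. Each of the 7 windows from 35 to 42 Mb had a negative median, down to -0.34 in a window of 2 peaks, and each of the 8 windows from 42 to 50 Mb had a positive one, up to 0.24. The largest change between neighboring steps of 5 Mb was also there, at 0.22 between the step from 35 Mb and the step from 40 Mb.

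Within the distal part the level was not flat. The highest medians of the chromosome lay toward its end, with 0.31 from 120 Mb on, 0.29 from 115 to 120 Mb and 0.28 from 105 to 110 Mb. Between 105 and 110 Mb, 110 of 119 peaks (92.4%) lay above 0, and from 120 Mb on 63 of 69 did (91.3%). The lowest distal steps were those from 90 to 95 Mb, with a median of 0.02 over 28 peaks, and from 85 to 90 Mb, with 0.06 over 79 peaks. From 90 to 95 Mb only 14 of the 28 peaks lay above 0, and the median SE of a peak there was 0.34, the largest of the 21 steps. The SD of the 16 distal step medians was 0.08, and so was that of the 5 proximal ones.

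The whole distribution of distal peaks lay higher, and its lower end most. The 5th percentile of the CGRP log2 fold change was -0.37 in the distal part, against -0.72 in the other autosomes, a difference of 0.34. The difference shrank to 0.29 at the lower quartile, to 0.17 at the upper quartile and to 0.06 at the 95th percentile. The distance between the quartiles was 0.29 in the distal part, against 0.42 in the other autosomes and 0.41 in the proximal part. The distal peaks thus also spread less. Their median SE was smaller as well, at 0.22 against 0.24 in the other autosomes, and the part of precision in the spread was not tested.

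**Figure D3:**
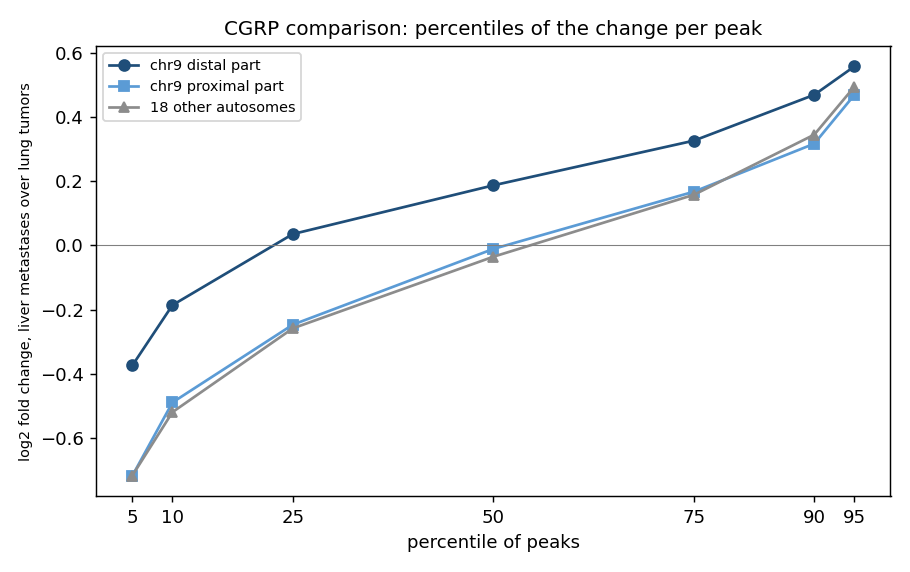
Percentiles (x axis, 5 to 95) of the CGRP log2 fold change (y axis, liver metastases over lung tumors) for the stronger peaks, of mean count 50 or more. The distal part of chromosome 9 runs above the other autosomes, by 0.34 at the 5th and 0.06 at the 95th percentile, while the proximal part stays within 0.03 of the other autosomes.

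The distal level held at every strength of peak. Among 144 distal peaks with a mean count of 200 or more, where the median SE was 0.13, the median was 0.17 and 91.0% lay above 0. In that class the 48 proximal peaks had a median of -0.07 with 41.7% above 0, and 3149 peaks of the other autosomes had -0.09 with 32.8% above 0. Distal medians exceeded those of the other autosomes by 0.20 to 0.28 in all 6 classes of mean count, and proximal medians by 0.01 to 0.10. Weak peaks, with a mean count under 10, had medians of 0.39 in the distal and 0.12 in the proximal part, against 0.12 in the other autosomes.

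**Figure D4:**
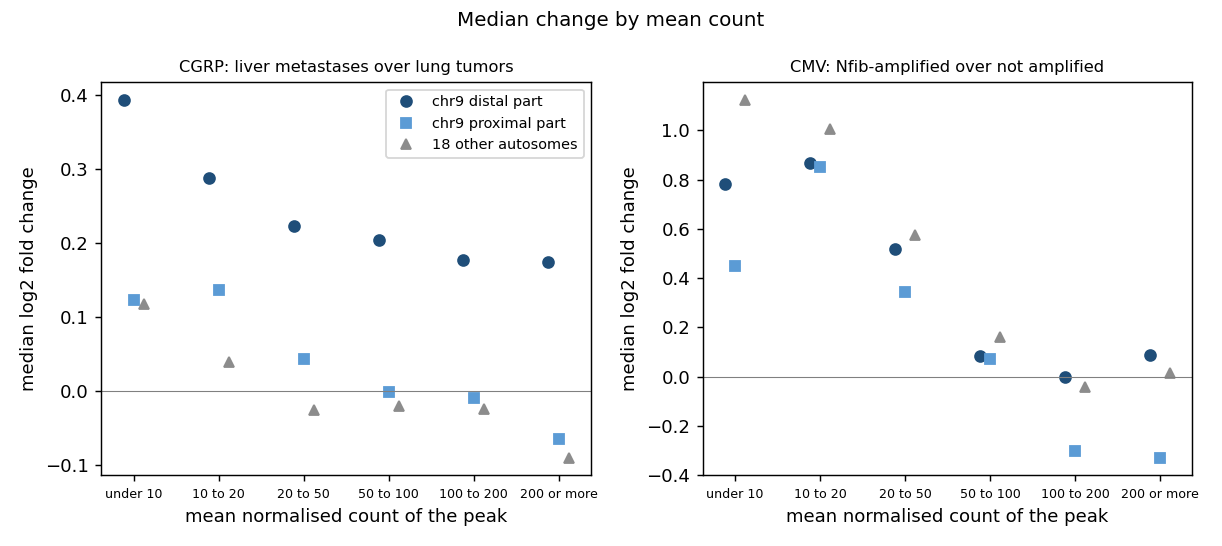
Median log2 fold change by class of mean normalised count for the distal part of chromosome 9, its proximal part and the 18 other autosomes, in the CGRP comparison (left) and the CMV comparison (right). On the left the distal points lie above the others in each class, by 0.20 to 0.28 over the other autosomes. On the right they lie below the other autosomes in the 4 classes under 100.

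Among the other autosomes, the end of chromosome 5 and chromosome 11 were set beside it, chosen with earlier results known. The 384 stronger peaks of chromosome 5 beyond 130 Mb had a CGRP median of 0.34, and stood above the other autosomes by 0.52 at the 5th and 0.18 at the 95th percentile, with 0.27 between their quartiles. Chromosome 11, next in rank, was 0.12 above the other autosomes at the median, 0.20 above at the 5th and 0.10 below at the 95th percentile, with 0.29 between its quartiles. The narrower spread and the wider gap at the lower end were thus also seen in both of these stretches. The differences between these stretches were not tested.

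Few single peaks of chromosome 9 had an adjusted p under 0.05 in the CGRP comparison. At an adjusted p under 0.05, 9 of 5878 peaks with an adjusted p were more accessible in liver metastases than in lung tumors (0.153%, against 0.0752% of all peaks tested). Another 20 were less accessible (0.34%, against 0.779% of all peaks). The remaining 283 peaks of the chromosome have no adjusted p in this table. At an unadjusted p under 0.05, 450 of 6152 peaks of chromosome 9 (7.31%) were higher and 168 (2.73%) lower, against 3.16% and 6.44% of the peaks of the other autosomes. A stronger distal peak of median SE had a 95% interval of 0.43 to either side, so a change of 0.19 lay below what a single peak of that precision could show. Against an absolute log2 fold change of 0.5, the authors' deposited table called 0 peaks of chromosome 9 higher (0% of all peaks, and 35 on chromosome 9 at an unadjusted p under 0.05) and 1 lower (0.0163%, against 0.058% of all peaks).

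The distal part, which holds 4587 of the 6161 peaks, had 8 of the 9 raised peaks, or 0.183% of its tested peaks, against 0.0711% in the other autosomes. The proximal part had 12 of the 20 lowered peaks, and its lowered share of 0.795% was near the 0.801% of the other autosomes, while that of the distal part was 0.183%. Only 3 raised peaks had a mean count of 50 or more. In the authors' deposited table, the strongest of them, from 122203433 to 122203933, had a mean count of 311 and changed by 0.45 (SE 0.12; adjusted p = 0.03184). With Nfib amplification the authors' deposited table put this peak at 0.16, with an SE of 0.14. In the authors' deposited table, the peak from 121551577 to 121552077 changed by 0.41 (SE 0.12; adjusted p = 0.04631). Both lie in the last 5 Mb step, whose median was 0.31, and both have an SE well under the median of 0.22.

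A pair of raised peaks 23.9 kb apart stood further above their surroundings, where the step median was 0.14. In the authors' deposited table, the peak from 95538050 to 95538550 gained 1.09 in CGRP liver metastases (SE 0.30; adjusted p = 0.04068). Its CMV value in the authors' deposited table was -0.68, with an SE of 0.36, which missed the threshold (adjusted p = 0.1106). Its neighbor from 95514108 to 95514608, with a mean count of 31.2 and named after its values were seen, gained 1.31 in CGRP liver metastases by the authors' deposited table, with an SE of 0.32 (adjusted p = 0.01116). This neighbor lost accessibility with Nfib amplification, at -1.10 in the authors' deposited table, with an SE of 0.40 (adjusted p = 0.01568). The CGRP and CMV changes were set against each other with a two-sided z test, adjusted after Benjamini and Hochberg over all peaks. They differed at both peaks of the pair (adjusted p = 0.002685 and 0.0001316). Here and at the sites that follow, the peaks were picked for a large change in one comparison, which by itself favors a difference.

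A further site, from 56614369 to 56614869, with a mean count of 29.9 and likewise named after its values were seen, moved in opposite directions. In the authors' deposited table it gained 1.12 in CGRP liver metastases (adjusted p = 0.04186) and stood at -1.70 with Nfib amplification (adjusted p = 7.518e-05). By the z test the changes differed, with an adjusted p of 2.553e-06. Of the 9 raised peaks, 1 was also raised and 2 were lowered with Nfib amplification, and 6 had a negative CMV value. On the other autosomes 16 of 70 raised CGRP peaks (22.9%) were lowered with Nfib amplification, so 2 of 9 is near that share. Over all peaks tested 12.2% were lowered with Nfib amplification.

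Lowered peaks reached a log2 change of -3.02 (SE 0.70), at a mean count of only 8.45. The largest raised value was 2.62 (SE 0.74), at a mean count of 6.09, so both extremes are weak peaks. Among lowered peaks with a mean count of 50 or more, that from 116988437 to 116988937 led in the authors' deposited table with -1.83 (SE 0.33; adjusted p = 5.343e-05). It lay inside a step whose median was 0.29. With Nfib amplification the authors' deposited table gave it -0.40, with an SE of 0.37. The loss was deeper in CGRP liver metastases than with Nfib amplification by the z test (adjusted p = 0.02275).

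Of the 20 lowered peaks, 5 lay within 2121 kb between 33 and 36 Mb, a stretch picked after the values were seen. In the authors' deposited table, the peak from 33234638 to 33235138 stood at -1.80 in CGRP liver metastases (SE 0.37; adjusted p = 0.0008466) and at -3.52 with Nfib amplification (SE 0.44; adjusted p = 1.37e-12). For the peak from 35355934 to 35356434 the corresponding values of the authors' deposited table were -1.49 (SE 0.40; adjusted p = 0.03136) and -4.01 (SE 0.50; adjusted p = 1.445e-12). For the peak from 34326313 to 34326813 they were, again in the authors' deposited table, -1.24 (SE 0.32; adjusted p = 0.02189) and -0.96 (SE 0.36; adjusted p = 0.02149). At the first pair the loss with Nfib amplification was the deeper one (adjusted p of the z test 0.01873 and 0.00166), and the last site did not pass that test (adjusted p = 0.7059). The remaining loss at a mean count of 50 or more, from 40189584 to 40190084, was smaller in the authors' deposited table, with a CGRP value of -0.91 (SE 0.24; adjusted p = 0.02255).

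The other 15 lowered peaks were weaker, and the following were named after their values were seen. The smallest CGRP adjusted p of the chromosome, 1.206e-06, was that of the peak from 114178521 to 114179021, at -2.39 (SE 0.37) in CGRP liver metastases and -3.92 (SE 0.53) with Nfib amplification in the authors' deposited table. In contrast, the peak from 74314511 to 74315011 stood at -2.92 (SE 0.60) in CGRP liver metastases and -0.01 (SE 0.63) with Nfib amplification in the authors' deposited table, and these changes differed (adjusted p of the z test 0.00786). The lowered peaks thus held sites that fell in both models and sites that passed in the CGRP comparison alone.

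Of the 20 lowered CGRP peaks of chromosome 9, 11 (55.0%) were lowered with Nfib amplification as well and 0 were raised, and 19 of the 20 had a negative CMV log2 fold change. On the other autosomes 369 of 788 lowered CGRP peaks (46.8%) were lowered with Nfib amplification too, and over all peaks tested 12.2% were. Another 82 of those 788 (10.4%) were raised with Nfib amplification. These 11 are 1.36% of the 809 lowered CMV peaks of the chromosome that have a CGRP adjusted p. The 1 peak raised in both is 11.1% of the 9 raised CGRP peaks, against 27.1% of 70 on the other autosomes and 34.3% raised in CMV over all peaks. The differences between these shares were not tested. The comparisons share no libraries, but the mean count of each peak is the same in both. A joint fit is thus possible, and the comparisons are not known to be independent.

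In the CMV model, the stronger peaks of the chromosome lay close to those of the other autosomes, whereas the median over peaks of every strength lay lower. The median of its stronger peaks was 0.04 on the log2 scale (quartiles -0.44 and 0.64), Nfib-amplified over not amplified libraries, against 0.06 (quartiles -0.46 and 0.78) for the other autosomes, which placed it 11 of 19 from the top. Over peaks of every strength the medians were higher, at 0.42 on chromosome 9 and 0.61 on the other autosomes, a gap of -0.19 that is as wide as that of the CGRP comparison but points the other way. The authors' test raised 1999 of 6152 peaks (32.5%, against 34.3% of all peaks tested) and lowered 818 (13.3%, against 12.2%). The raised peaks had a median of 2.32 on the log2 scale, with a median SE of 0.69, and the lowered peaks one of -1.57, with a median SE of 0.46. Of the 2817 called peaks 71.0% were raised on the authors' scaling, but 39.0% of 2886 once the genome median of 0.60 was subtracted from each peak. Against an absolute log2 fold change of 0.5, the authors' deposited table held 1086 raised peaks (17.7%, against 19% of all peaks) and 320 lowered ones (5.2%, against 4.64%). Lowered peaks made up 18.6% of the proximal part (292 of 1573) and 11.5% of the distal part (526 of 4579), and raised peaks 31.8% and 32.7%.

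The even total hid strong local differences. The medians of the 21 steps ran from -0.51 to 0.93 with an SD of 0.35, and 10 of the 21 lay above the median of the other autosomes. This SD was number 3 of the 19 autosomes counted from the most even, and the SDs of the others ran from 0.24 to 0.69. The highest step was from 25 to 30 Mb, with a median of 0.93 (quartiles 0.15 and 1.83) over 94 stronger peaks. There, 215 of all 370 peaks (58.1%) were raised and 21 (5.68%) lowered. Next came 50 to 55 Mb with a median of 0.55 and 156 of 302 peaks raised (51.7%), and 80 to 85 Mb with 0.53 and 118 of 234 raised (50.4%). All of these shares stand against 34.3% raised over all peaks.

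The lowest CMV steps were proximal. From 40 to 45 Mb the median was -0.51 over 78 stronger peaks, and 79 of all 317 peaks (24.9%) were lowered and 36 (11.4%) raised. From 20 to 25 Mb the median was -0.46, and from 35 to 40 Mb it was -0.41, with 60 of 153 peaks lowered (39.2%) and 15 raised (9.80%), against 12.2% lowered and 34.3% raised over all peaks. Gains and losses met within a step: from 20 to 21 Mb 27 of 36 stronger peaks were lowered and from 21 to 22 Mb 25 of 35, with medians of -0.73 and -0.54, while from 23 to 24 Mb 8 of 10 were raised with a median of 1.88. Within the step from 50 Mb, the window from 52 to 53 Mb stood out with a median of 2.87 and 8 of 9 stronger peaks raised. The counts in windows of 1 Mb cover stronger peaks only, whereas 12.2% and 34.3% are shares of all peaks. For scale, 24.8% of the stronger peaks of the other autosomes were lower and 32.3% higher at an unadjusted p under 0.05.

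The CGRP pattern along the chromosome was not that of the CMV comparison. Where the CMV median was highest, from 25 to 30 Mb, the CGRP median was 0.01, and from 105 to 110 Mb the CGRP median was 0.28 while the CMV median was -0.31. Over the 21 steps, the medians of the comparisons had a Pearson correlation of 0.01 and a Spearman correlation of -0.18, given as a description since steps of one chromosome share their libraries. Over the 1529 stronger peaks the Pearson correlation was 0.24, against 0.20 over those of the other autosomes. The distal part had a CMV median of 0.07 and the proximal part -0.16, so the CMV distal median was level with that of the other autosomes (0.06).

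Likeness between peaks fell off with distance in a different way in each comparison. For CGRP, pairs of stronger peaks on chromosome 9 within 10 kb had a correlation of 0.31 over 471 pairs. The correlation was 0.11 at 0.1 to 1 Mb, 0.10 at 1 to 5 Mb and 0.04 at 10 to 20 Mb. At 20000 to 50000 kb the correlation was -0.02. For CMV it was also 0.31 within 10 kb and 0.21 at 0.1 to 1 Mb, but 0.04 at 1 to 5 Mb and -0.06 at 5 to 10 Mb. Every one of these values lay between the lowest and the highest of 17 other autosomes at the same distance in the same comparison. Pairs share peaks and libraries, and the values describe these tables only.

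**Figure D5:**
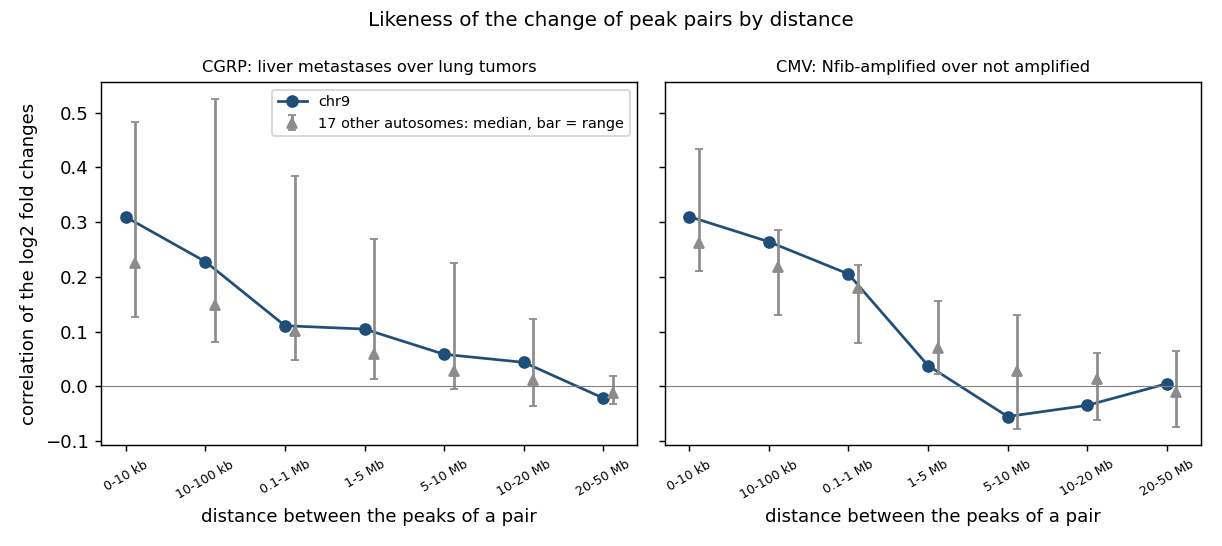
Correlation of the log2 fold changes of pairs of peaks (y axis), centred on the mean of their chromosome, by the distance between them (x axis), for chromosome 9 (line) and the median and range of 17 other autosomes, without chromosome 19, which has few peaks. CGRP values on the left drop to 0.11 at 0.1 to 1 Mb and to 0.04 at 10 to 20 Mb. They reach -0.02 at 20000 to 50000 kb. CMV values on the right are at 0.21 and 0.04 at 0.1 to 1 Mb and 1 to 5 Mb.

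The strongest CMV changes of chromosome 9 lay at single sites in both parts. Among peaks with a mean count of 50 or more, the authors' deposited table put the largest gain from 23212665 to 23213165, with 5.48 (SE 0.69; adjusted p = 1.855e-12) and a CGRP value of -0.37 (SE 0.61). It was followed in the authors' deposited table by the peaks from 52773651 to 52774151 at 5.22 (SE 0.81) and from 26385059 to 26385559 at 4.96 (SE 0.75). The first lay in a 1 Mb window with a CMV median of 1.88 over 10 stronger peaks (23 to 24 Mb). The second lay in one of 2.87 over 9 stronger peaks (52 to 53 Mb). The third lay in the highest step, with 0.93 from 25 to 30 Mb, but its own window from 26 to 27 Mb had only 0.33. Each of these medians includes the peak itself. The peaks from 55646260 to 55646760 at 4.86 (SE 0.83) and from 113542423 to 113542923 at 4.60 (SE 0.88) completed the 5 leading gains in the authors' deposited table. All 5 had a CGRP adjusted p of 0.862 or more in the authors' test. Their CGRP SEs, from 0.61 to 0.87, were far above the median of 0.22 for the stronger peaks, so that outcome says little. At all 5 the z test found the change higher in the CMV comparison, with adjusted p of at most 0.001043. The mean count of a peak is a single value shared by both comparisons, so a peak can reach the minimum of 50 through the CMV libraries alone. That filter and the choice of these peaks by their CMV gain favor this outcome, so nothing is read from it.

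The leading loss lay from 72937038 to 72937538, in a step whose CMV median was 0.10. In the authors' deposited table it stood at -5.15 with Nfib amplification and at -0.63 in CGRP liver metastases, with SEs of 0.50 and 0.33. The authors' deposited table gave CMV changes of -4.10 (SE 0.46) for the peak from 31125793 to 31126293 and -3.71 (SE 0.40) for the peak from 78318223 to 78318723. The remaining leading CMV losses were the sites that start at 33234638 and 35355934, both also lowered in CGRP liver metastases. The 3 peaks with the highest mean counts had small values. The strongest, from 36575109 to 36575609, with a mean count of 776, had -0.10 (SE 0.14) in CGRP liver metastases and -0.40 (SE 0.16; adjusted p = 0.03073) with Nfib amplification in the authors' deposited table. The next, from 94438762 to 94439262 and from 37015561 to 37016061, had mean counts of 591 and 553 and passed the threshold in neither comparison of the authors' deposited table.

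Tested peak by peak, 857 of 6152 peaks of chromosome 9 had a higher change in the CMV comparison (13.9%, against 17.8% of all peaks) and 492 a higher change in the CGRP comparison (8%, against 5.62%), by the z test. With each comparison centred on its median over all peaks, the counts were 444 and 1341. The choice of the chromosome used the CGRP values, so nothing is read from these shares.

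The pools on which the authors called summits covered the chromosome to like extents in its parts. Chromosome 9 held 5.68% of the autosomal summits of the CGRP pool, 4.67% of those of the CMV pool and 5.07% of those of the mixed pool. The distal part held 71.1%, 71.4% and 69.5% of the chromosome's summits in these pools. Of the 6161 peaks, 4363 (70.8%) held a summit of all 3 pools, and these had a median CGRP log2 fold change of 0.20 over all mean counts. The 692 peaks (11.2%) with a summit of the CMV and mixed pools but not of the CGRP pool were raised with Nfib amplification in 86.6% of cases, against 34.3% of all peaks. The 458 peaks (7.43%) with a CGRP and mixed summit but no CMV summit were lowered in 39.5%, against 12.2%. Both shares are in part built in, since the pools hold libraries of the comparisons.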

How the data were processed

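ATAC-seq was measured in 48 libraries, of which 33 entered the authors' comparisons. Per the submitters' processing notes, which give neither versions nor roles, the tools were Bowtie2, MACS2 and DESeq2 and the genome build was mm9. The authors deposited 1 table per comparison, with a mean normalised count per peak (a signal over libraries), a log2 fold change with its SE, a Wald score, and p-values and adjusted p-values against 0 and against an absolute log2 fold change of 0.5, per the file headers. The sources used here state no covariates, and the direction follows the tables' names and the labels. The authors also deposited the merged peaks and the summits of 3 pooled sets of libraries, with −log10 scores of at least 1.30; values per library were not used here, so the depth behind a value is known only through its SE.

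Peaks were joined by name. Medians were taken over peaks with a mean count of 50 or more, in steps of 5 Mb with at least 10 such peaks. The mean count of a peak is the same in both comparisons and so is not particular to either model. The CGRP and CMV changes were compared peak by peak in a two-sided z test, adjusted over all peaks. Its SE was the root of the summed squares of both SEs, which takes the comparisons as independent. The z test was tested on simulated data with independent normal errors of just these SEs. That run cannot show how the z test behaves where real peaks depart from them. The members and lists were chosen with earlier results of these data known. Named peaks, all with a mean count of 50 or more, were those past the adjusted p in the CGRP comparison, the 5 largest gains and 5 largest losses in the CMV comparison, the 3 with the highest mean counts and those that passed in both. Steps named were the 3 highest and 3 lowest in each comparison; other names were chosen after their values were seen. The gene table is on another build than mm9, so no gene or sequence was assigned to a peak. The work was done in Python 3.11.15 with scipy 1.17.1, pandas 2.3.3 and numpy 2.4.6, and figures were drawn with matplotlib 3.10.9.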

Additional observations from a re-analysis of the deposited data

Results flagged for a closer look

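Signal appeared on chromosome 9 in stretches where the merged list holds no peak. From 3886531 to 18096374, over 14.2 Mb, the authors' summit lists held 760 summits of the CMV pool, 599 of the CGRP pool and 693 of the mixed pool. These came to 53.5, 42.2 and 48.8 summits per Mb, against 94.2, 78.4 and 83.9 over the whole chromosome. From 79922916 to 82005762, over 2.08 Mb, there were 341 summits of the CMV pool, 132 of the CGRP pool and 160 of the mixed pool. The CMV pool was denser there than over the chromosome (164 against 94.2 summits per Mb) and its summits were weaker (median score 5.27 against 10.6), while the CGRP pool was less dense (63.4 against 78.4 per Mb). Another such stretch, from 35378085 to 36532841, held 4, 2 and 3 summits. Why the merged list holds no peak in these stretches was not tested, and the CGRP and CMV changes there are not known.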

How the results depend on the processing

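The CGRP levels moved little with the processing, and the CMV level depended on weak peaks. Across mean-count minima, a weighted mean, and leaving out called peaks or the outermost windows, the CGRP median of chromosome 9 ran from 0.13 to 0.20, and its distance to the other autosomes from 0.16 to 0.19, also without chromosomes 5, 11 and 19. Windows of other sizes or starts put 90.5% to 91.7% of windows above the other autosomes. The distal median ran from 0.18 to 0.24 and the proximal one from -0.04 to 0.04 with splits at 40, 42 and 50 Mb and other minima, chosen after seeing the data. The CMV distance to the other autosomes, -0.02 as reported, was -0.19 with no mean-count minimum and ran from -0.08 to 0.01 otherwise. Counts depended on the setting. At an adjusted p under 0.1, 23 CGRP peaks were raised. Against an absolute log2 fold change of 0.5, 0 were raised and 1 was lowered in the CGRP comparison, and 1086 were raised and 320 lowered in the CMV comparison. At an adjusted p under 0.01, 530 CMV peaks were lowered. Centring on the median of all peaks gave 1126 raised and 1760 lowered CMV peaks, and 444 and 1341 peaks with a higher change in the CMV and in the CGRP comparison. Of 50 alternatives, 40 left a level within the SD of the step medians, the share of windows within its 95% Wilson interval, or a count within 1.5 times. That SD describes unevenness along the chromosome and not the error of a level. The Wilson interval treats the steps as independent, though they share their libraries, so it serves here only as a yardstick. For CMV it was 0.35, so even the move from -0.02 to -0.19 is among the 40. Leaving out single libraries was not run, as the tables hold fitted values. No paired analysis was possible because the results come from the authors' fits and no values per library were used.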
